A study of Mus musculus with 12 samples.

Results

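Glycolysis and the hypoxia response were followed through 39 genes in mouse cochlear glial cells that were kept as spheres or induced to differentiate. The genes were picked by symbol and role, when earlier results of these data were known, and they comprise 15 glycolytic enzymes, 2 lactate dehydrogenases, 4 glucose and lactate transporters, 5 kinases that steer glycolytic flux, 4 genes of the hypoxia-inducible factors (HIF) and their prolyl hydroxylases, and 9 other HIF targets. The 39 symbols matched 40 of the 55487 rows of the expression table, because Aldoa is listed at a pair of loci. None of the 40 rows was lost to the limit on low values, and each was tested.

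The libraries came from cultured cells of postnatal day 4 cochleae of mice on a mixed C57Bl6 and FVB/N background, with 3 poly(A) RNA-seq libraries in each of 4 groups and 12 libraries in all. The sphere group was harvested as floating spheres in DMEM/F12-based medium with EGF, bFGF, IGF and heparan sulfate. For the other groups, spheres were plated on poly-L-ornithine and laminin and kept for 14 days in a differentiation medium with B27 and N2. SCDM was DMEM/F12 with the neurotrophins BDNF and NT3, each at 50 ng/ml, and SCDM/FGF was the same with bFGF at 100 ng/ml. FIBCL was Neurobasal medium with GlutaMax and bFGF and with Forskolin (20 μM), which raises cAMP, ISX9 (20 μM), a neurogenic small molecule, I-BET (1 μM), a BET bromodomain inhibitor, CHIR99021 (10 μM), a GSK3 inhibitor, and the cytokine LIF (1000 U/ml). The labels give the bFGF of FIBCL both as 50 and as 100 ng/ml. From SCDM to FIBCL, base medium, growth factors and added compounds all changed at once, and their parts cannot be told apart. The labels list no BDNF or NT3 for FIBCL, so from SCDM/FGF to FIBCL base medium, neurotrophins and added compounds changed together. From spheres to each medium, floating or plated growth, growth factors and the 14 days of differentiation changed together. In these comparisons the parts cannot be told apart either. In the table the FIBCL libraries are headed FIBC, a name that the study gives to the mixture without LIF as well, so the presence of LIF rests on the labels. The cultures start from dissociated modiolus of several pooled animals of both sexes and are not a sorted cell type.

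Glycolysis splits glucose into pyruvate, and lactate dehydrogenase turns pyruvate into lactate when it is not burnt in mitochondria. HIF is a dimer of an oxygen-regulated subunit, HIF-1α or HIF-2α, with ARNT, and prolyl hydroxylases mark the regulated subunit for destruction when oxygen is present. Stabilised HIF binds the core RCGTG in promoters and raises most glycolytic enzymes, glucose transporters, pyruvate dehydrogenase kinases and secreted factors such as VEGF, and the protein level of HIF-1α is not given by its mRNA. Neurons and the glia around them are known to divide glucose and lactate use between them, with lactate carried by the monocarboxylate transporters.

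The promoters of 6 members whose mRNA levels the following paragraphs turn on are shown here, so that the HIF core can be read in them. Each is the 250 bases before the annotated start on the strand of the gene, 5′ to 3′, from RefSeq (GRCm38.p6), and capitals mark every ACGTG or GCGTG and its reverse complement. The windows lie at chr7:110627407-110627656 (+) for Adm, chr7:138909507-138909756 (−) for Bnip3, chr12:73907617-73907866 (+) for Hif1a, chrX:106186850-106187099 (+) for Pgk1, chr3:104638414-104638663 (+) for Slc16a1 and chr11:120948817-120949066 (+) for Slc16a3.
Adm: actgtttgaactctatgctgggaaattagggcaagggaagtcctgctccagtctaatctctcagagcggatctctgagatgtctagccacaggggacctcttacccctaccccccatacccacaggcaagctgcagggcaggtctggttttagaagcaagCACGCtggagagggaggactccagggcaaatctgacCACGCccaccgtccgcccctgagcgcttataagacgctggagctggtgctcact
Bnip3: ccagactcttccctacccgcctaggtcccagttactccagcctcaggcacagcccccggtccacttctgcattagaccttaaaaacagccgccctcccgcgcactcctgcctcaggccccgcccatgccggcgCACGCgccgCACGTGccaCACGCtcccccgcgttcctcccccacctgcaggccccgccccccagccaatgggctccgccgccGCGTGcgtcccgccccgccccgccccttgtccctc
Hif1a: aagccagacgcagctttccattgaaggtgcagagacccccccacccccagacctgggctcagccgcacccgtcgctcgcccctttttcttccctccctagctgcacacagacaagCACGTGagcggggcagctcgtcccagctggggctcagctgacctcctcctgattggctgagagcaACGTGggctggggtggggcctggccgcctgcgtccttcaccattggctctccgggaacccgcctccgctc
Pgk1: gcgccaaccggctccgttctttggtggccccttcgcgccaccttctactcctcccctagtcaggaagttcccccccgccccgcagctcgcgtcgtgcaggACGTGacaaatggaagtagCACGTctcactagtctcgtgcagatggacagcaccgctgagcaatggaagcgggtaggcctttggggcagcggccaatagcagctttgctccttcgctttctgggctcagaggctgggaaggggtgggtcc
Slc16a1: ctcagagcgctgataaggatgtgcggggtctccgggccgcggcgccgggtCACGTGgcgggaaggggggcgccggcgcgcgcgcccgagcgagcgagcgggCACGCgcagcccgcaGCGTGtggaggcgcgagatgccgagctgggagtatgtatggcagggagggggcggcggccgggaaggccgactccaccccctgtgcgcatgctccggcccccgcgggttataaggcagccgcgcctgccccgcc
Slc16a3: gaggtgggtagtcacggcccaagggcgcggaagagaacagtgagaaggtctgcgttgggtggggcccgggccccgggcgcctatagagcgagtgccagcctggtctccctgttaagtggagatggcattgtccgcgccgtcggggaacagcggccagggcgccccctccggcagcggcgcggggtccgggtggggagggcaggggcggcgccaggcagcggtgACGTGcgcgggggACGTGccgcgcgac
Of these, Adm had no ACGTG in this window and 2 matches to GCGTG, while Pgk1 and Slc16a3 each had 2 matches to ACGTG. RefSeq promoters were found for 36 of the 39 genes, with 51 windows in all, since some genes have several starts. ACGTG on either strand was in 24 of the 51 windows (47.1%), against 16.6% of all 32851 promoters of the table and 20.8% of the promoters of tested genes. With GCGTG included, 41 of the 51 windows (80.4%) held a match, against 38.6% of all promoters and 53.9% of those of tested genes. ACGTG lies within CACGTG, the E-box that other factors bind, and CACGTG was counted on both strands. A match is a description of the letters and no evidence of binding, and the genes had been picked as HIF targets among others.

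Values are TPM, the relative abundance of transcripts corrected for their length, so levels of different genes can be set side by side. They were rescaled between libraries by a trimmed mean over 8434 expressed genes, and a difference is on the scale log2(scaled TPM + 1), which understates the change of low genes. A gene counts as higher or lower when limma gave an adjusted p below 0.05 and the log2 fold change was 1 or more in size. The number of reads is unknown, since TPM does not keep it, and 21625 to 22281 genes per library were above 0. The rows of a FIBCL library added up to 899295 to 911076 TPM and those of other libraries to at least 982067. In FIBCL against SCDM the median gene lay at −0.40 on the deposited scale and at −0.07 after rescaling. All 12 libraries carry replicate numbers as biological replicates, and how many cultures or animals stand behind each is not given.

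Markers of other cell types moved with the groups. The summed level of 10 glial markers was 599 to 625 scaled TPM in spheres and 17.4 to 23.8 in FIBCL, against 204 to 237 in SCDM and 205 to 230 in SCDM/FGF. That of 10 neuronal markers was 26.1 to 26.4 in spheres and 526 to 558 in FIBCL, against 19.0 to 21.9 in SCDM and 28.3 to 38.5 in SCDM/FGF, with Rbfox3 at 0 in SCDM/FGF. The spheres are labelled glial, and the summed level of 10 fibroblast markers was 2671 to 2718 in spheres and 161 to 175 in FIBCL, against 7336 to 7646 in SCDM and 5393 to 5840 in SCDM/FGF. Over 10 macrophage markers it was 142 to 183, 169 to 199, 1811 to 2022 and 2022 to 2193 in the same order, over 10 markers of dividing cells 95.8 to 100.3, 10.7 to 11.0, 231 to 256 and 188 to 279, and over 10 mural markers 155 to 164, 26.3 to 28.7, 380 to 457 and 106 to 137. The sum of 10 endothelial markers was 161 to 176, 122 to 132, 60.7 to 66.3 and 285 to 326, with Cldn5 at 0 in SCDM and Cldn5 and Emcn at 0 in FIBCL, and red blood cell markers summed to at most 3.39. In FIBCL, Cd68 alone held 152, 177 and 165 of the macrophage sum, against 34.2, 42.4 and 33.1 in spheres. C1qa was at 22.1, 26.1 and 19.9 in spheres and 0.562, 0.394 and 0.197 in FIBCL. Of the 10 macrophage markers, 1 was higher and 6 were lower in FIBCL than in spheres, beside 12.5% and 15.5% of all tested genes. Egfl7 alone held 88.0, 99.8 and 88.3 of the endothelial sum in FIBCL. In FIBCL against SCDM, 9 of 10 glial, 9 of 10 macrophage, 8 of 10 fibroblast and 10 of 10 dividing-cell markers were lower, and 8 of 8 tested neuronal markers were higher. Of 9 tested mural markers, 5 were lower and 2 higher, and of all tested genes 16.2% were lower and 13.2% higher. Twist1 was the 1 fibroblast marker that was higher, at 53.7, 42.4 and 48.5 in SCDM and 101, 113 and 116 in FIBCL. Sox10, the glial transcription factor, was at 85.4, 83.0 and 82.5 in spheres and 10.0, 8.21 and 8.41 in FIBCL. The neuronal gene Tubb3 was at 12.0, 11.7 and 11.0 in SCDM and 84.7, 81.8 and 77.3 in FIBCL, and Snap25, a synaptic gene, was at 0.162, 0 and 0 in SCDM and 37.8, 37.5 and 37.7 in FIBCL. The part of these cells in the results on glycolysis was not tested. In bulk libraries, fewer cells of a type and less RNA per cell cannot be told apart.

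From spheres to the BDNF and NT3 media, more of the genes rose than fell. In SCDM against spheres, 17 of the 40 rows were higher, 2 were lower and 21 were not called, where 12.4% of all tested genes were called, 6.94% higher and 5.46% lower. In SCDM/FGF against spheres, 25 were higher, 1 was lower and 14 were not called, beside 12.1% of all tested genes called, 7.39% higher and 4.73% lower. The median log2 fold change of the 40 rows was 0.84 in SCDM and 1.50 in SCDM/FGF, against −0.01 and −0.02 over all tested genes. These comparisons share the 3 sphere libraries. Adding bFGF to SCDM left 6 rows higher, 0 lower and 34 not called, beside 9.77% of all tested genes called, 5.73% higher and 4.04% lower. By the limma adjusted p alone, 28 rows were higher and 3 were lower in that comparison, where 43.1% of all tested genes passed, 21.8% higher and 21.3% lower. By the same rule, 25 rows were higher and 7 lower in SCDM against spheres (50.3% of all tested genes, 24.5% higher and 25.8% lower), and 32 higher and 4 lower in SCDM/FGF against spheres (50.4%, 25% higher and 25.4% lower).

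In FIBCL the same genes split. Against SCDM, 10 rows were higher, 8 were lower and 22 were not called, beside 29.3% of all tested genes called, and the median was −0.07 both for the rows and for all genes. Of all tested genes, 13.2% were higher and 16.2% were lower. Against SCDM/FGF, 5 rows were higher and 13 were lower, beside 27.8% of all genes called, 12% higher and 15.8% lower, and the median was −0.68 against −0.05 over all genes. Against spheres, 14 were higher and 4 were lower, beside 28.1% of all genes called, 12.5% higher and 15.5% lower, with a median of 0.77 against −0.06. By the limma adjusted p alone, the rows higher and lower in FIBCL were 16 and 18 against SCDM (71.7% of all tested genes passed, 32.7% higher and 39% lower), 8 and 27 against SCDM/FGF (70.7%, 32.5% higher and 38.2% lower) and 27 and 8 against spheres (71.6%, 32.9% higher and 38.7% lower). SCDM/FGF had the highest mean of the 4 groups for 25 of the 40 rows and spheres the lowest for 25. The same counts were not made over all tested genes, so these cannot be set against them.

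Each of these values is relative to the scale between libraries. When each library was scaled to Gapdh, the reference gene of the study's RT-qPCR and itself a glycolytic enzyme, all genes shifted together and their median moved to −0.56 between FIBCL and SCDM, −1.54 between FIBCL and spheres, −1.0 between SCDM and spheres and −1.61 between SCDM/FGF and spheres. The calls became 6 higher and 15 lower between FIBCL and SCDM, 3 and 15 between FIBCL and spheres, 4 and 12 between SCDM and spheres, 3 and 11 between SCDM/FGF and spheres, and 2 and 1 between SCDM/FGF and SCDM. The medians of the 40 rows were then −0.58, −0.84, −0.19, −0.19 and −0.10 in the same order, each above the median of all genes except in FIBCL against SCDM. Of the 105 calls over the 6 comparisons, 49 were kept, 39 fell under the limits and 17 turned in sign under this scaling, and the 17 lay above its median of all genes. The calls of Gapdh itself against spheres are set to 0 by this scaling and count among the 39. The following paragraphs do not give the Gapdh-scaled value of every call. On the deposited TPM the calls were 8 higher and 11 lower between FIBCL and SCDM, and 4 higher and 19 lower between FIBCL and SCDM/FGF. The medians of the 40 rows in FIBCL were then −0.41 against SCDM, −0.94 against SCDM/FGF and 0.27 against spheres, beside −0.40, −0.31 and −0.51 for all genes.

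The map of the genes by library shows these blocks. Within SCDM/FGF, replicate 2 was the highest of the 3 libraries for 31 of the 40 rows, a count that was not made over all tested genes. Without replicate 2, SCDM/FGF against spheres gave 25 higher and 1 lower, SCDM/FGF against SCDM 6 and 0, and FIBCL against SCDM/FGF 5 and 11.

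**Figure D1:**
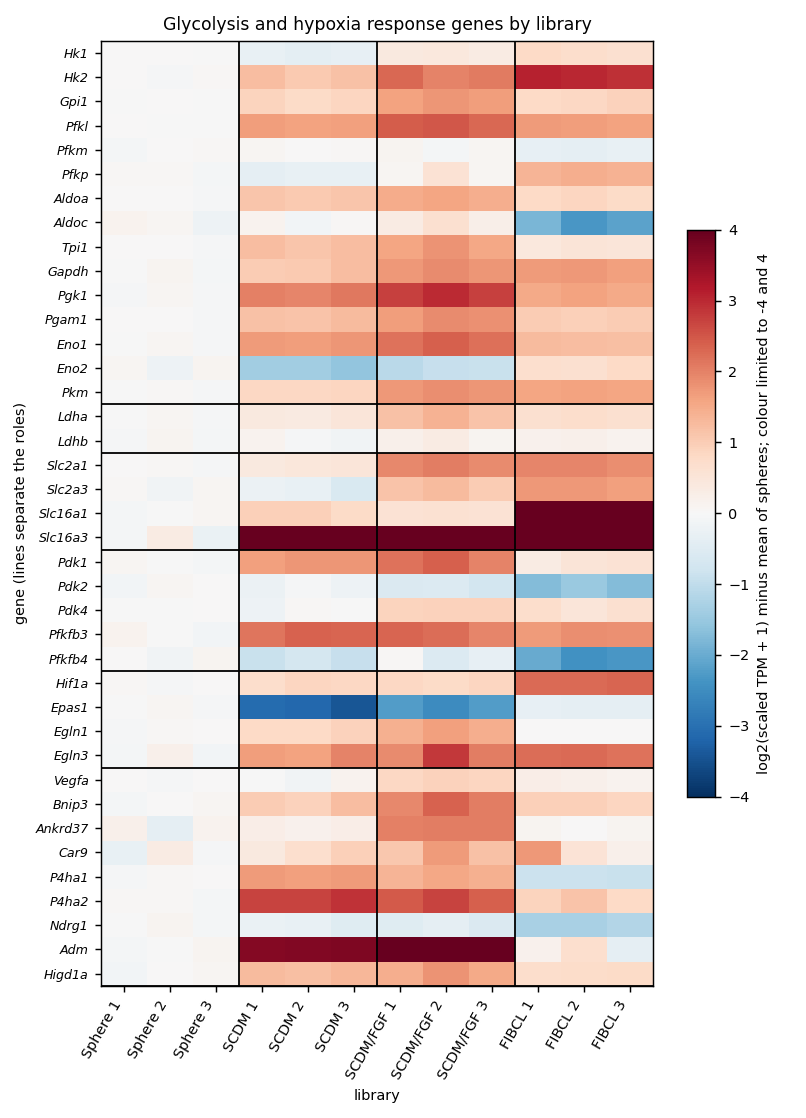
Difference of log2(scaled TPM + 1) from the mean of the 3 sphere libraries (colour, limited to −4 and 4) for the 39 genes (rows, lines separate the roles) in each of the 12 libraries (columns); the second Aldoa locus is left out. Most glycolytic enzymes are red in SCDM and SCDM/FGF, Slc16a1 is deeper in FIBCL than in the SCDM media, and Epas1 and Eno2 are blue in both SCDM media. Scaled to Gapdh instead, the differences of several enzymes from spheres turn negative.

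The genes of both oxygen-regulated HIF subunits were higher in FIBCL than in either SCDM medium, and they differed in their course from spheres. Hif1a, which encodes HIF-1α, was at 102, 97.1 and 100.3 scaled TPM in spheres and 482, 483 and 501 in FIBCL, against 164, 181 and 179 in SCDM and 179.5, 172 and 180.3 in SCDM/FGF. FIBCL lay above every other library, and SCDM and SCDM/FGF overlapped. Hif1a was higher in FIBCL than in SCDM by 1.48 ± 0.044 (SE) on the log2 scale (limma adjusted p = 8.26e-11) and higher than in spheres by 2.28 ± 0.044 (limma adjusted p = 3.71e-12). Scaled to Gapdh, these were 0.88 and 0.58, under the fold limit. Against SCDM/FGF, Hif1a was higher in FIBCL by 1.46 ± 0.044 (SE, limma adjusted p = 9.99e-11). The difference of SCDM/FGF from SCDM was 0.024, with a 95% interval of −0.072 to 0.12. Epas1 encodes HIF-2α, the subunit known from endothelial and other specialised cells. It was listed at 65.1, 69.0 and 63.2 scaled TPM in spheres, 6.94, 6.57 and 5.23 in SCDM and 13.3, 10.6 and 13.3 in SCDM/FGF, against 51.8, 51.3 and 51.1 in FIBCL. Both SCDM media were thus below spheres and FIBCL in every library. Epas1 was lower in SCDM than in spheres (log2 fold change −3.21 ± 0.10, SE, limma adjusted p = 8.41e-10) and was higher in FIBCL than in SCDM by 2.86 ± 0.10 (limma adjusted p = 3.56e-10). It was also called lower in SCDM/FGF than in spheres (−2.32) and higher in FIBCL than in SCDM/FGF (1.97), with limma adjusted p-values of 9.48e-09 and 8.93e-09. Against spheres, FIBCL differed by −0.35, which passed the adjusted p (0.00884 in limma) and not the fold limit.

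The prolyl hydroxylases are both sensors and targets of HIF. Egln1, which encodes the main hydroxylase PHD2, was at 20.7, 21.9 and 21.3 scaled TPM in spheres and 21.3, 21.5 and 21.7 in FIBCL, against 37.3, 37.8 and 40.9 in SCDM and 59.1, 68.2 and 59.5 in SCDM/FGF. SCDM/FGF was the highest group without overlap, and FIBCL overlapped spheres, with a difference of 0.013 and a 95% interval of −0.12 to 0.14. Egln1 was called lower in FIBCL than in SCDM/FGF (−1.49 ± 0.06, SE, limma adjusted p = 1.11e-09) and higher in SCDM/FGF than in spheres (1.50 ± 0.06, SE, limma adjusted p = 4.74e-09), the latter turning to −0.25 when scaled to Gapdh. Egln3, which encodes PHD3 and is induced strongly by hypoxia, was at 1.63, 2.16 and 1.56 in spheres, 7.89, 7.43 and 9.96 in SCDM and 9.26, 18.8 and 10.4 in SCDM/FGF, against 12.0, 12.3 and 11.6 in FIBCL. All 3 differentiation media were above spheres, with log2 fold changes of 1.76 in SCDM, 2.25 in SCDM/FGF and, for FIBCL, 2.23 and limma adjusted p-values of 3.06e-05, 4.26e-06 and 1.85e-06. Scaled to Gapdh, these were 0.97, 0.83 and 0.90, each under the fold limit. Differences among the media were not called, with FIBCL at 0.47 from SCDM and a 95% interval of 0.011 to 0.93, and SCDM/FGF replicate 2 stood above the other SCDM/FGF libraries.

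Of the 9 other HIF targets, 5 were higher in SCDM than in spheres (6.94% of all tested genes were) and 7 in SCDM/FGF (7.39% of all), and 3 were lower in FIBCL than in SCDM (16.2% of all). Adm, which encodes the vasodilator peptide adrenomedullin, was at 0.974, 1.06 and 1.23 scaled TPM in spheres and 1.36, 2.32 and 0.631 in FIBCL, against 25.8, 26.3 and 26.8 in SCDM and 221, 273 and 204 in SCDM/FGF. The levels stepped up without overlap from spheres to SCDM to SCDM/FGF, and FIBCL overlapped spheres. Its log2 fold change was 3.71 ± 0.20 (SE) from spheres to SCDM and 3.09 ± 0.20 from SCDM to SCDM/FGF, with limma adjusted p-values of 5.72e-08 and 2.77e-07. Between FIBCL and SCDM it was −3.54 ± 0.20 (SE, limma adjusted p = 2.34e-08). Between FIBCL and SCDM/FGF it was −6.63 ± 0.20 (SE, limma adjusted p = 1.24e-10), the largest difference of the 40 rows in that comparison.

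P4ha1 and P4ha2 encode the catalytic subunits of the collagen prolyl 4-hydroxylase, which acts on collagen and not on HIF. P4ha1 was listed at 113, 122 and 119 scaled TPM in spheres, 384, 366 and 389 in SCDM and 305, 345 and 321 in SCDM/FGF, against 64.9, 64.6 and 63.6 in FIBCL, so that FIBCL was the lowest group in every library. P4ha1 was 5.82-fold lower in FIBCL than in SCDM (log2 fold change −2.54 ± 0.048, SE, limma adjusted p = 2.99e-12). For P4ha2 the levels were 19.6, 19.8 and 18.1 in spheres and 36.0, 43.8 and 33.8 in FIBCL, against 130.2, 129.9 and 149 in SCDM and 108, 131 and 105 in SCDM/FGF. P4ha2 was higher in SCDM than in spheres by 2.77 (limma adjusted p = 3.56e-09) and lower in FIBCL than in SCDM (−1.83, limma adjusted p = 2.49e-08). Both genes were higher in SCDM/FGF than in spheres (1.45 and 2.52), of which that of P4ha1 turned to −0.35 when scaled to Gapdh. The fibroblast marker sums given above moved in the same direction as these collagen enzymes between SCDM and FIBCL. From spheres to FIBCL the fibroblast sum fell from 2671 to 2718 down to 161 to 175. In that comparison P4ha1 differed by −0.86 and P4ha2 by 0.94 (limma adjusted p = 1.95e-08 and 9.04e-06), both short of the fold limit. The part of fibroblasts in these values was not tested.

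Bnip3 encodes a mitophagy receptor of the outer mitochondrial membrane. It was at 63.6, 66.8 and 69.7 in spheres, 136, 127 and 158 in SCDM and 255, 343 and 279.6 in SCDM/FGF, against 129.9, 129 and 122 in FIBCL, with FIBCL overlapping SCDM. Bnip3 was higher in SCDM/FGF than in SCDM by 1.05 ± 0.10 (SE, limma adjusted p = 7.74e-06). This value dropped under the fold limit without SCDM/FGF replicate 2 (0.93) and without SCDM replicate 2 (0.98). It did so too on the deposited TPM (0.97) and when scaled to Gapdh (0.35). Bnip3 was higher in SCDM than in spheres by 1.06 (limma adjusted p = 6.25e-06), which was 0.97 without SCDM replicate 3, 0.91 on the deposited TPM and −0.03 when scaled to Gapdh. Ankrd37, a HIF target that encodes an ankyrin repeat protein, rose in SCDM/FGF. Its levels were 2.75, 1.52 and 2.55 in spheres and 2.51, 2.29 and 2.46 in FIBCL, against 2.84, 2.66 and 2.87 in SCDM and 11.9, 12.2 and 12.4 in SCDM/FGF. Against SCDM, SCDM/FGF was higher by 1.80 ± 0.13 (SE, limma adjusted p = 6.53e-07), and FIBCL lay at −0.15 with a 95% interval of −0.44 to 0.14.

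Vegfa, the angiogenic growth factor, was at 114 to 118 scaled TPM in spheres, 106 to 128 in SCDM and 207 to 223 in SCDM/FGF, against 129 to 141 in FIBCL, and no difference of it reached the fold limit. Higd1a, a mitochondrial protein induced by hypoxia, was higher than in spheres in SCDM (1.27) and in SCDM/FGF (1.58), with limma adjusted p-values of 2.28e-07 and 4.04e-08, the latter difference turning to −0.17 when scaled to Gapdh. Ndrg1, which is expressed in Schwann cells and needed for their myelin, was at 51.8, 56.7 and 50.4 in spheres and 20.8, 20.9 and 23.0 in FIBCL and was called in no other comparison than this (−1.26 ± 0.077, SE, limma adjusted p = 4.39e-08). Its value in FIBCL against SCDM was −0.90, short of the fold limit. Car9, a cell-surface carbonic anhydrase and a widely used hypoxia marker, was low throughout, at 0.186, 0.848 and 0.428 in spheres and 3.83, 1.15 and 0.670 in FIBCL, against 0.924, 1.34 and 1.85 in SCDM and 2.12, 3.78 and 2.29 in SCDM/FGF. Only SCDM/FGF against spheres was called (1.32 ± 0.35, SE, limma adjusted p = 0.0083), and the FIBCL libraries spread over nearly the whole range.

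**Figure D2:**
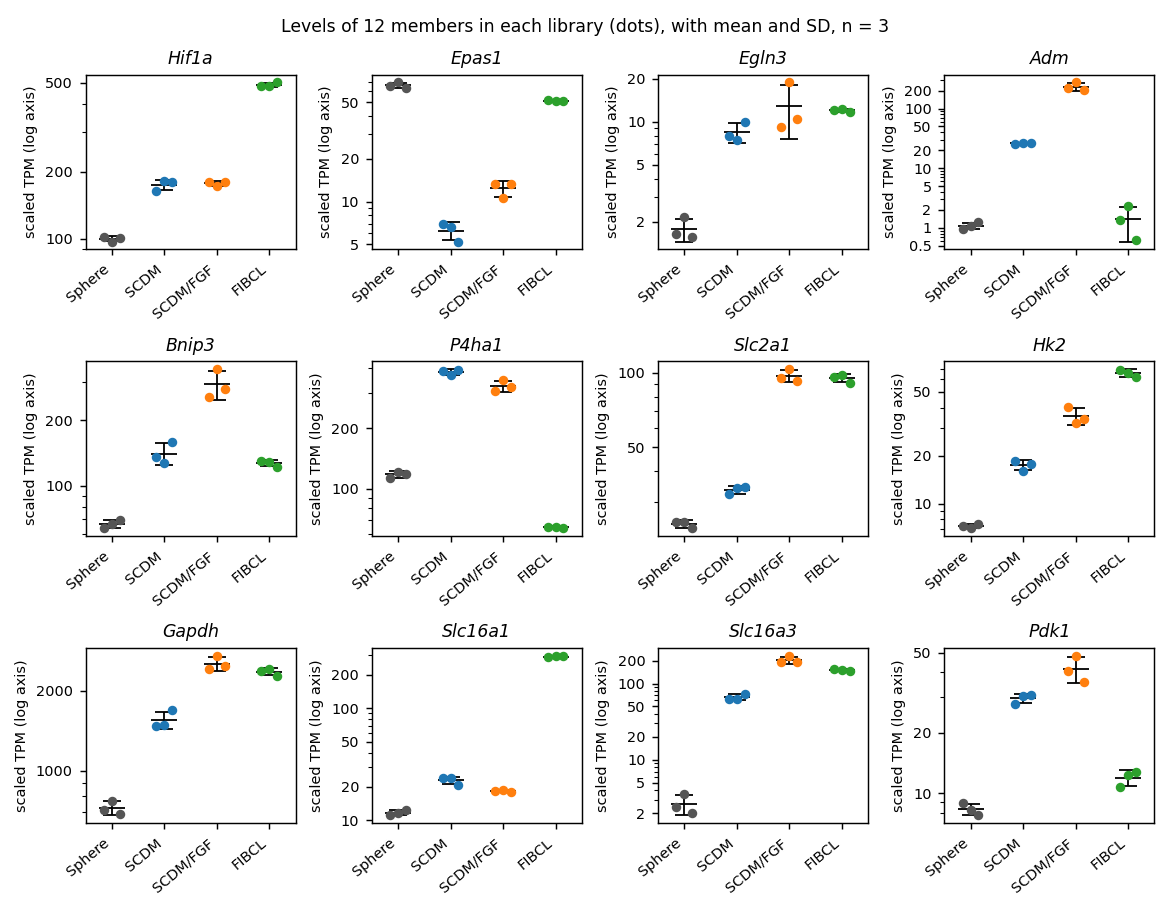
Scaled TPM (log axes) of 12 of the genes in each library (dots), with the mean and SD of the 3 libraries of each group (lines and bars). Hif1a, Slc16a1 and Hk2 are highest in FIBCL, Adm and Bnip3 are highest in SCDM/FGF, P4ha1 is lowest in FIBCL, and Epas1 is lowest in the SCDM media.

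The 4 transporters were each higher in FIBCL than in SCDM and than in spheres, beside 13.2% and 12.5% of all tested genes. Scaling to Gapdh reversed none of these 8 differences but took 4 of them under the fold limit. Those were Slc16a3 (0.58) and Slc2a1 (0.88) against SCDM, and Slc2a3 (0.18) and Slc2a1 (0.26) against spheres. In SCDM/FGF against SCDM, 3 transporters were higher, beside 5.73% of all tested genes. The same scaling took these 3 to 0.81 (Slc2a1), 0.89 (Slc2a3) and 0.90 (Slc16a3). Slc2a1 encodes GLUT1, the basal glucose transporter of most cells. It was listed at 24.8, 25.0 and 23.4 scaled TPM in spheres, 32.2, 34.1 and 34.4 in SCDM and 95.1, 103 and 92.9 in SCDM/FGF, against 96.4, 98.4 and 91.2 in FIBCL. SCDM/FGF and FIBCL overlapped, with a difference of −0.026 and a 95% interval of −0.14 to 0.089. Each was higher than SCDM, SCDM/FGF by 1.50 ± 0.052 (SE) and FIBCL by 1.48 ± 0.052, with limma adjusted p-values of 1.56e-09 and 3.56e-10, and these comparisons share the SCDM libraries. Slc2a3 encodes GLUT3, the high-affinity transporter known from neurons. Its levels were 5.26, 4.50 and 5.33 in spheres and 19.1, 19.1 and 17.9 in FIBCL, against 4.14, 3.87 and 2.93 in SCDM and 12.4, 13.4 and 11.2 in SCDM/FGF. FIBCL was the highest group in every library and SCDM the lowest. Slc2a3 was higher in FIBCL than in SCDM by 2.09 ± 0.11 (SE, limma adjusted p = 9.81e-09) higher in FIBCL than in spheres by 1.71 (limma adjusted p = 6.3e-08) and higher in SCDM/FGF than in SCDM by 1.53 ± 0.11 (limma adjusted p = 5.29e-07). Against spheres, SCDM/FGF was higher by 1.15 (limma adjusted p = 5.24e-06), and that value was 0.95 on the deposited TPM and −0.46 when scaled to Gapdh.

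Slc16a1 encodes MCT1, a lactate and pyruvate transporter that is known from glia and endothelium. It was at 11.1, 11.6 and 12.4 scaled TPM in spheres, 23.8, 23.8 and 20.7 in SCDM and 18.1, 18.5 and 17.9 in SCDM/FGF, against 287, 291 and 290.0 in FIBCL. The FIBCL libraries were far above all others and close to each other. The difference was 3.61 ± 0.058 (SE) from SCDM, 3.92 ± 0.058 from SCDM/FGF and 4.51 ± 0.058 from spheres, with limma adjusted p-values of 8.05e-13, 4.57e-13 and 1.52e-13. This was a rise of 12.2-fold over SCDM. The glial marker sum was 17.4 to 23.8 in FIBCL and 204 to 237 in SCDM, and the endothelial sum 122 to 132 and 60.7 to 66.3, with 3 of 10 endothelial markers higher and 2 lower in FIBCL. Of all tested genes, 13.2% were higher and 16.2% lower. Egfl7 alone held 88.0, 99.8 and 88.3 of the endothelial sum in FIBCL. There Pecam1 was at 0.203, 0.0862 and 0.0394, and Cldn5 and Emcn were at 0. The part of these cells in the rise of Slc16a1 was not tested. Slc16a3 encodes MCT4, the lactate exporter of glycolytic cells and a HIF target. Its levels were 2.44, 3.53 and 2.02 in spheres and 155, 152 and 148 in FIBCL, against 63.5, 63.2 and 72.8 in SCDM and 191, 228 and 192 in SCDM/FGF. Every differentiated library was above every sphere library, and the order SCDM, FIBCL, SCDM/FGF was without overlap. Slc16a3 rose from spheres by 4.22 ± 0.13 (SE) in SCDM and 5.82 ± 0.13 in SCDM/FGF, and by 5.40 ± 0.13 in FIBCL, with limma adjusted p-values of 7.06e-10, 6.39e-11 and 1.67e-11. SCDM/FGF was higher than SCDM by 1.60 ± 0.13 (SE, limma adjusted p = 1.39e-06). In FIBCL against SCDM the difference was 1.18 ± 0.13 (limma adjusted p = 5.88e-06), and it was 0.78 on the deposited TPM and 0.58 when scaled to Gapdh, under the fold limit in both.

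Hk2 is a hexokinase that binds mitochondria and is induced in proliferating and hypoxic cells. It was at 7.33, 7.04 and 7.50 scaled TPM in spheres, 18.6, 16.1 and 17.9 in SCDM and 40.2, 31.9 and 34.1 in SCDM/FGF, against 69.1, 66.0 and 62.1 in FIBCL, in 4 steps without overlap. From spheres it was higher by 1.16 ± 0.084 (SE) in SCDM and 2.13 ± 0.084 in SCDM/FGF, and by 3.01 ± 0.084 in FIBCL (limma adjusted p = 5.51e-07, 4.48e-09 and 6.16e-11). Scaled to Gapdh, the SCDM and SCDM/FGF values fell under the fold limit, to 0.15 and 0.44. Hk1, the hexokinase of brain, was at 50.5, 49.9 and 49.2 in spheres and 86.8, 82.3 and 79.0 in FIBCL, against 39.9, 38.0 and 39.1 in SCDM and 65.6, 67.2 and 62.4 in SCDM/FGF. FIBCL was higher than SCDM by 1.06 ± 0.045 (SE, limma adjusted p = 1.64e-09), a value that fell under the fold limit on the deposited TPM (0.67) and when scaled to Gapdh (0.47). Gpi1, which converts glucose 6-phosphate to fructose 6-phosphate, was higher in SCDM/FGF than in spheres by 1.68 ± 0.05 (SE, limma adjusted p = 5.32e-10), and the value was −0.12 when scaled to Gapdh. In FIBCL it overlapped SCDM, with a 95% interval of the difference of −0.11 to 0.11.

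The phosphofructokinases set the committed step. Pfkl, the liver form, was at 34.7, 33.7 and 34.0 in spheres, 111, 106 and 107 in SCDM and 185, 197 and 172 in SCDM/FGF, against 113, 112 and 107 in FIBCL. It was higher than in spheres in all 3 media (log2 fold changes of 1.64 for SCDM, 2.40 for SCDM/FGF and 1.66 for FIBCL, limma adjusted p = 5.68e-10, 4.02e-11 and 7.83e-11), with the FIBCL value at −0.01 when scaled to Gapdh, and FIBCL and SCDM overlapped. Pfkp, the platelet form that brain also expresses, was listed at 25.5, 25.7 and 23.5 in spheres and 65.9, 70.1 and 67.3 in FIBCL, against 19.3, 20.3 and 20.0 in SCDM and 26.6, 37.3 and 26.6 in SCDM/FGF. FIBCL was above every other library. Pfkp was higher in FIBCL than in SCDM by 1.72 ± 0.11 (SE, limma adjusted p = 4.58e-08), than in SCDM/FGF by 1.16 (limma adjusted p = 1.58e-06) and than in spheres by 1.41 (limma adjusted p = 2.89e-07), the last turning to −0.26 when scaled to Gapdh. On the deposited TPM the differences from SCDM/FGF and from spheres were 0.85 and 0.88. Pfkm, the muscle form, was at 26.4 to 29.0 in spheres, 27.8 to 29.1 in SCDM and 26.3 to 30.1 in SCDM/FGF, against 21.5 to 22.4 in FIBCL and was called in no comparison.

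Aldoa, the main aldolase, was among the most abundant of these genes, at 646, 649.6 and 615 scaled TPM in spheres and 1106, 1167 and 1083 in FIBCL, against 1372, 1326 and 1389 in SCDM and 1778, 1906 and 1734 in SCDM/FGF. The groups did not overlap, and Aldoa was called higher than in spheres in SCDM (1.10, limma adjusted p = 7.82e-09) and in SCDM/FGF (1.50, limma adjusted p = 7.37e-10), where scaling to Gapdh gave −0.0029 and −0.30. Aldoc, the aldolase of astrocytes and other neural cells, was at 27.8, 26.4 and 21.9 in spheres, 27.7, 23.1 and 26.1 in SCDM and 32.3, 40.2 and 29.7 in SCDM/FGF, against 6.40, 4.21 and 4.97 in FIBCL. FIBCL was below all other libraries, with log2 fold changes of −2.12 ± 0.15 (SE) from SCDM, −2.50 ± 0.15 from SCDM/FGF and −2.10 ± 0.15 from spheres (limma adjusted p = 1.2e-07, 2.95e-08 and 1.41e-07). The second Aldoa locus (ENSMUSG00000114515) held at most 1.94 scaled TPM in any library and was listed at 0 in a pair of FIBCL libraries. Its call as lower in FIBCL than in SCDM (−1.25, limma adjusted p = 0.000288) rests on these low values, and its reads may be shared with Aldoa.

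Tpi1, Pgk1, Pgam1 and Eno1, which carry triose phosphates to phosphoenolpyruvate, were each lowest in spheres and highest in SCDM/FGF, with FIBCL between spheres and SCDM. Of the 4, Pgk1 had the largest fold from spheres to SCDM/FGF, at 144, 155 and 144 in spheres and 424, 452 and 427 in FIBCL, against 599.6, 571 and 638 in SCDM and 995, 1184 and 993 in SCDM/FGF. Pgk1 was higher than in spheres by 2.02 ± 0.069 (SE) in SCDM and 2.82 ± 0.069 in SCDM/FGF, and by 1.55 ± 0.069 in FIBCL (limma adjusted p = 1.66e-09, 1.54e-10 and 3.06e-09), the FIBCL value turning to −0.15 when scaled to Gapdh. For Eno1 the levels were 176, 186 and 171 in spheres, 577, 571 and 601 in SCDM and 809.5, 939 and 822 in SCDM/FGF, against 429.7, 420.3 and 414 in FIBCL. From spheres these were differences of 1.71, 2.26 and 1.24 in SCDM, SCDM/FGF and FIBCL, and the FIBCL value was 0.70 on the deposited TPM and −0.46 when scaled to Gapdh. Tpi1 and Pgam1 were called higher in SCDM (1.19 and 1.20) and in SCDM/FGF (1.64 and 1.80) than in spheres, where scaling to Gapdh brought the SCDM/FGF values to −0.16 and −0.0017. In FIBCL against SCDM/FGF, Pgk1 (−1.28), Tpi1 (−1.17) and Eno1 (−1.02) were called lower (limma adjusted p = 1.56e-08, 2.32e-08 and 1.64e-08), and that of Eno1 was −0.95 without SCDM/FGF replicate 2.

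Eno2, the enolase of neurons, moved against Eno1 from spheres to SCDM and from SCDM to FIBCL. It was at 92.2, 76.2 and 94.7 scaled TPM in spheres and 141, 136 and 154 in FIBCL, against 32.5, 32.5 and 28.7 in SCDM and 40.5, 45.5 and 46.7 in SCDM/FGF, with no overlap between groups. Eno2 was lower in SCDM than in spheres (−1.46 ± 0.089, SE, limma adjusted p = 1.39e-07) and higher in FIBCL than in SCDM by 2.16 ± 0.089 (limma adjusted p = 1.36e-09) and than in SCDM/FGF by 1.68 ± 0.089 (limma adjusted p = 1.3e-08). The spheres, whose neuronal marker sum was 26.1 to 26.4, held more Eno2 than either SCDM medium. Gapdh was at 712, 770.0 and 685 in spheres, 1474, 1489 and 1684 in SCDM and 2408, 2692 and 2467 in SCDM/FGF, against 2375, 2408 and 2270.4 in FIBCL. It was higher than in spheres by 1.10 ± 0.066 (SE) in SCDM and 1.80 ± 0.066 in SCDM/FGF, and by 1.70 ± 0.066 in FIBCL (limma adjusted p = 1.14e-07, 2.47e-09 and 8.54e-10), and the SCDM value was 0.95 on the deposited TPM. Between FIBCL and SCDM/FGF it overlapped, with a 95% interval of −0.25 to 0.045. Pkm, the pyruvate kinase of most tissues, was at 445, 459 and 434 in spheres and 1347, 1354 and 1339 in FIBCL, against 797, 793 and 817 in SCDM and 1493, 1614 and 1528 in SCDM/FGF. Pkm was called higher than in spheres in SCDM/FGF (1.79, limma adjusted p = 5.55e-11) and FIBCL (1.59, limma adjusted p = 1.74e-11), which became −0.01 and −0.11 when scaled to Gapdh.

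Near-identical copies may take part of the reads of some enzymes, which was not examined in the reads. Eno1b, a near-identical relative of Eno1, was listed at 76.7 to 475 scaled TPM, while Pgam1-ps2 was at 0 to 48.0 and Ldhb-ps at 3.65 to 11.0. Summing each copy with its parent gene, an alternative chosen after the data were seen, changed no call among the 105 calls of the 6 comparisons.

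Ldha, the muscle-type lactate dehydrogenase that favours lactate, was at 663, 698 and 642 in spheres, 882, 855 and 927 in SCDM and 1509.6, 1744 and 1469 in SCDM/FGF, against 1037, 1076 and 1047 in FIBCL. Its only call was SCDM/FGF against spheres (1.23 ± 0.063, SE, limma adjusted p = 3.28e-08), and that value was −0.57 when scaled to Gapdh. Ldhb, the heart-type form, held 189 to 215 in spheres and 220.1 to 228 in FIBCL, against 181 to 219 in SCDM and 215 to 248 in SCDM/FGF and was called in no comparison. In FIBCL against SCDM/FGF its 95% interval was −0.21 to 0.13.

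Of the 5 kinases that steer the flux, 3 were lower in FIBCL than in SCDM and 0 were higher, where 16.2% of all tested genes were lower and 13.2% higher. Pyruvate dehydrogenase kinases shut the entry of pyruvate into the citric acid cycle, and Pdk1 is the form that HIF induces. Pdk1 was at 8.88, 8.21 and 7.81 scaled TPM in spheres, 27.9, 30.3 and 30.8 in SCDM and 40.5, 48.0 and 35.8 in SCDM/FGF, against 10.7, 12.3 and 12.8 in FIBCL. The groups did not overlap, and Pdk1 was lower in FIBCL than in SCDM (log2 fold change −1.25 ± 0.10, SE, limma adjusted p = 5.03e-07) and than in SCDM/FGF (−1.71 ± 0.10, limma adjusted p = 3.45e-08). Pdk1 was higher than in spheres in SCDM (1.72) and SCDM/FGF (2.18), with limma adjusted p-values of 1.02e-07 and 1.65e-08. Scaled to Gapdh, these values from spheres were 0.71 and 0.48, under the fold limit. Pdk2, the widely expressed form, was at 19.5, 22.4 and 21.5 in spheres and 5.61, 6.90 and 5.70 in FIBCL, against 17.8, 20.2 and 18.3 in SCDM and 13.8, 14.2 and 12.1 in SCDM/FGF. It was called lower in FIBCL than in SCDM (−1.49 ± 0.092, SE, limma adjusted p = 4.42e-08) and than in spheres (−1.65, limma adjusted p = 1.99e-08). The call against SCDM/FGF (−1.03, limma adjusted p = 1.23e-06) ended without SCDM/FGF replicate 2 (−0.98), FIBCL replicate 1 (−0.98) or FIBCL replicate 3 (−0.99). Pdk4, the form induced by fasting, was under 3 scaled TPM in every library and was called in no comparison.

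Pfkfb3 and Pfkfb4 make fructose 2,6-bisphosphate, which activates phosphofructokinase. Pfkfb3 was at 2.61, 2.23 and 2.07 in spheres, 13.4, 16.0 and 15.7 in SCDM and 15.4, 14.4 and 11.6 in SCDM/FGF, against 9.66, 10.9 and 10.8 in FIBCL. All media were above spheres, by 2.28 for SCDM, 2.16 for SCDM/FGF and 1.80 for FIBCL (limma adjusted p = 2.48e-08, 4.1e-08 and 5.79e-08). Scaled to Gapdh, the SCDM/FGF and FIBCL values fell under the fold limit, to 0.68 and 0.41. Pfkfb4, in contrast, was at 25.4, 22.6 and 26.9 in spheres and 5.35, 3.79 and 4.15 in FIBCL, against 13.0, 14.8 and 12.8 in SCDM and 25.6, 16.8 and 19.8 in SCDM/FGF. FIBCL was below all other libraries, with log2 fold changes of −1.43 ± 0.15 (SE) from SCDM, −1.99 ± 0.15 from SCDM/FGF and −2.26 ± 0.15 from spheres (limma adjusted p = 3.87e-06, 2.24e-07 and 7.48e-08).

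**Figure D3:**
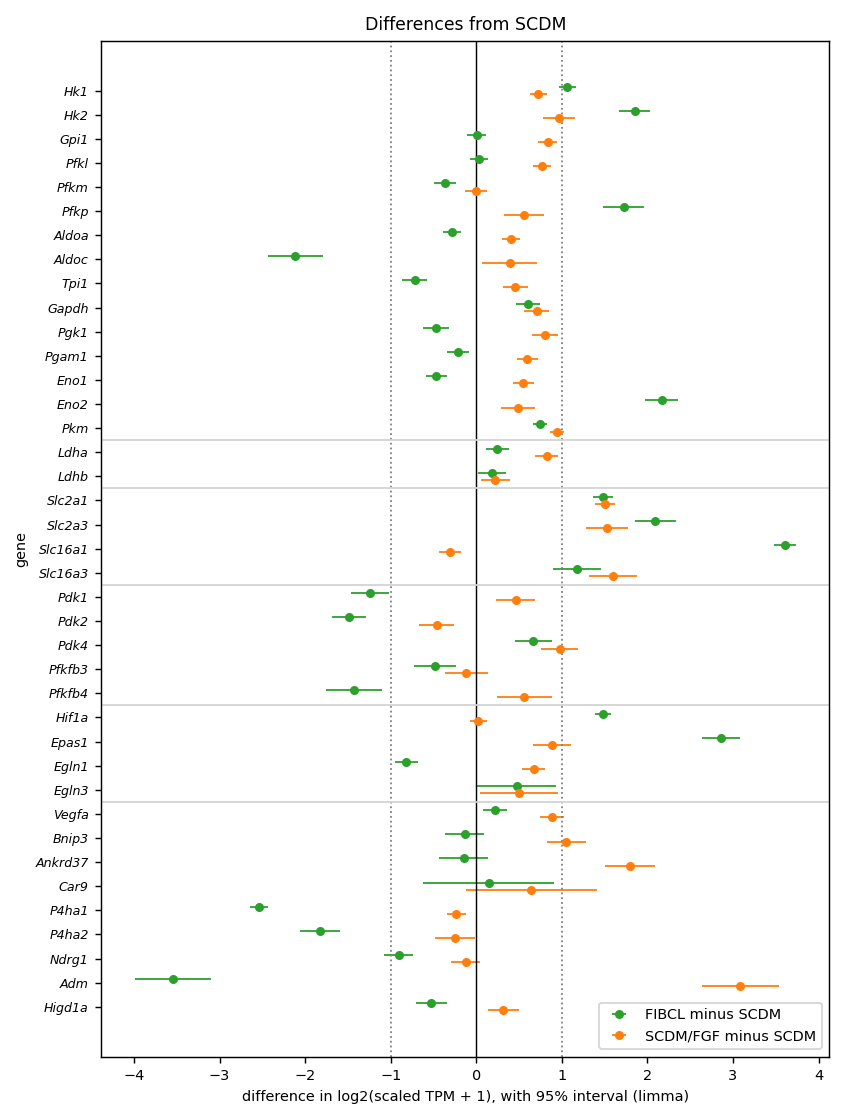
Difference from SCDM in log2(scaled TPM + 1), with its 95% interval from limma (bars), for FIBCL (green) and SCDM/FGF (orange) and for the 39 genes (rows, lines separate the roles); dotted lines mark −1 and 1, and the 2 comparisons share the SCDM libraries. The transporters lie to the right in FIBCL, Adm lies at −3.54 in FIBCL and at 3.09 in SCDM/FGF, and P4ha1 and P4ha2 are low in FIBCL alone; scaled to Gapdh, no called difference of these comparisons changes sign.

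Ratios of isoenzymes within a library do not depend on the scale between libraries. Differences were tested by exact permutation (two-sided), which with 3 against 3 libraries cannot go below p = 0.1 and was run for 11 ratios in 44 comparisons. Eno2 over Eno1 was 0.525, 0.409 and 0.553 in spheres and 0.328, 0.324 and 0.371 in FIBCL, against 0.0563, 0.0570 and 0.0478 in SCDM and 0.0501, 0.0485 and 0.0569 in SCDM/FGF. In FIBCL the ratio was 6.34-fold that in SCDM, and in SCDM it was 9.16-fold lower than in spheres (exact permutation p = 0.1 for each). Pfkp over Pfkl was likewise higher in spheres and FIBCL than in the SCDM media, at 0.692 to 0.765 in spheres and 0.586 to 0.631 in FIBCL, against 0.174 to 0.191 in SCDM and 0.143 to 0.190 in SCDM/FGF. Slc16a3 over Slc16a1 went from 0.163 to 0.304 in spheres to 2.66 to 3.51 in SCDM and 10.5 to 12.3 in SCDM/FGF, and was 0.510 to 0.541 in FIBCL. The lactate exporter MCT4 thus held more transcript than MCT1 in the SCDM media, and MCT1 more than MCT4 in spheres and FIBCL. Epas1 over Hif1a was 0.630 to 0.711 in spheres and 0.102 to 0.107 in FIBCL, against 0.0292 to 0.0425 in SCDM and 0.0615 to 0.0742 in SCDM/FGF. Hk2 over Hk1 rose from a mean of 0.146 ± 0.00583 (SD, n = 3) in spheres to 0.449 ± 0.0218 in SCDM and 0.545 ± 0.0691 in SCDM/FGF, and it was 0.794 ± 0.00780 in FIBCL. Ldha over Ldhb was 4.66 to 4.76 in FIBCL and 4.03 to 5.11 in SCDM, which overlapped (log2 difference 0.06, exact permutation p = 0.7).

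The 15 glycolytic enzymes and 2 lactate dehydrogenases together took 0.455 ± 0.00688% (SD, n = 3) of the listed TPM in spheres and 0.749 ± 0.0374% in FIBCL, against 0.812 ± 0.0270% in SCDM and 1.22 ± 0.0758% in SCDM/FGF. SCDM/FGF was the highest and spheres the lowest in every library, and FIBCL was below SCDM in every library. This share was not tested. Without the 100 most abundant other genes in the denominator the means were 0.679, 1.40, 1.23 and 1.91% in the same order, so that FIBCL then stood above SCDM.

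**Figure D4:**
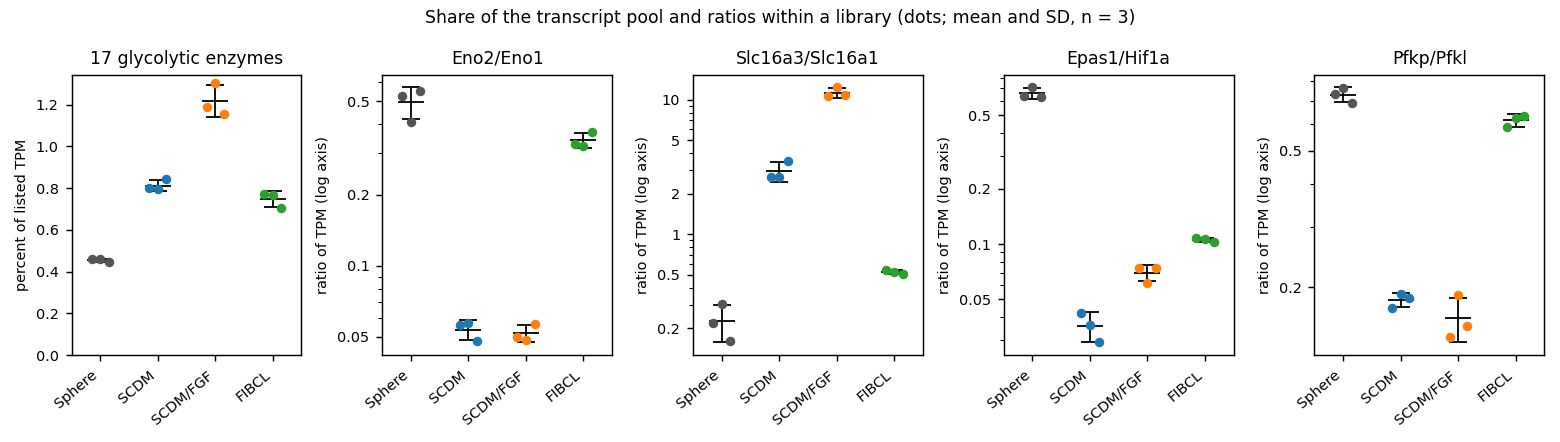
Percent of listed TPM in 17 enzymes of glycolysis and lactate production (left, axis from 0) and 4 ratios of TPM between related genes (log axes) in each library (dots), with mean and SD of 3 libraries per group. SCDM/FGF is highest in the share, Eno2/Eno1 and Pfkp/Pfkl are high in spheres and FIBCL, and Slc16a3/Slc16a1 is above 1 in the SCDM media alone.

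Promoter matches were also counted against the behaviour of the genes. The 17 genes called higher than in spheres in both SCDM media were Adm, Aldoa, Bnip3, Egln3, Eno1, Gapdh, Higd1a, Hk2, P4ha1, P4ha2, Pdk1, Pfkfb3, Pfkl, Pgam1, Pgk1, Slc16a3 and Tpi1. ACGTG stood in 52.2% of their 23 promoter windows and in 42.9% of the 28 windows of the other genes, a difference given with no test. Windows were counted and not genes, so genes with several starts, such as Aldoa, Eno1 and Pfkm, weigh more than once. Shares by gene were not taken, and the difference cannot be read as one between the genes. Tpi1 had neither ACGTG nor GCGTG in its window, and Hif1a, which was not among the 17, had 3 matches to ACGTG, 2 of them the strands of 1 CACGTG.

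Other genes of the same pathways were listed by symbol. In FIBCL against SCDM, where 13.2% of all tested genes were higher and 16.2% lower, the lists gave the following counts. Of 20 tested further isoforms and controls of glycolysis, 3 were higher and 3 lower in FIBCL than in SCDM. Tigar, a fructose bisphosphatase that slows glycolysis, was the highest of the called (1.15 ± 0.14, SE, limma adjusted p = 1.91e-05), and Hk3, a hexokinase of myeloid cells, was the lowest (−3.31 ± 0.16, limma adjusted p = 4.58e-09), where the macrophage marker sum was also lower. Of 13 genes of gluconeogenesis and glycogen, 0 were higher and 2 were lower, Pck2 (−2.19) and Ppp1r3c (−1.18), and of 10 pentose phosphate genes, 0 were higher and 2 were lower, H6pd (−1.72) and Rpia (−1.47). Of 9 genes for pyruvate entry into mitochondria, 0 were called. The HIF machinery was called in 1 of 12 genes, Cited2, a HIF-induced competitor for its coactivators (−1.02, limma adjusted p = 1.02e-07). Arnt, the constitutive partner, differed by −0.014 with a 95% interval of −0.14 to 0.11.

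A further 32 tested HIF targets went in both directions in FIBCL against SCDM, with 7 higher and 9 lower, beside 13.2% and 16.2% of all tested genes. Ddit4, an inhibitor of mTORC1 also known as REDD1, was at 37.5, 36.9 and 40.8 scaled TPM in SCDM and 422, 425 and 435 in FIBCL, a log2 fold change of 3.44 ± 0.056 (SE, limma adjusted p = 9.26e-13). Lox, the collagen crosslinking oxidase, was at 839, 976 and 994 in SCDM and 20.1, 18.7 and 18.5 in FIBCL, a log2 fold change of −5.54 ± 0.081 (SE, limma adjusted p = 4.17e-13). Hilpda, a lipid droplet protein induced by hypoxia that was named after its values were seen, was at 15.9, 16.4 and 16.5 in SCDM and 174, 198 and 187 in FIBCL. In SCDM/FGF against SCDM, 3 of the 32 were higher and 2 lower, beside 5.73% and 4.04% of all tested genes. H6pd, the hexose 6-phosphate dehydrogenase of the endoplasmic reticulum, was the single pentose phosphate gene called there, at 30.8, 32.8 and 31.2 in SCDM and 146, 138 and 133 in SCDM/FGF, and was also named after its values in that comparison were seen.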

How the data were processed

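Poly(A) RNA of 12 libraries was sequenced, 3 each of spheres and of cells kept in SCDM, SCDM/FGF and FIBCL. The values are TPM per gene as deposited by the authors, who, as their methods describe, trimmed reads (SeqPrep, Sickle), aligned them (TopHat) and estimated gene levels with RSEM; versions and genome build are not given in the sources used here. The methods speak of fragments per kilobase and of edgeR, but the deposited values are not counts, so limma was used in place of a count test. Libraries were rescaled by their mean log2 ratio to the average library, trimmed by 30%, across the 8434 genes that reached 5 TPM in each of the 12 libraries. The 16016 genes with at least 1 TPM in 3 libraries were fitted in 1 model of the 4 groups on log2(scaled TPM + 1) with limma 3.58.1 (R 4.3.3, mean-variance trend) for 6 comparisons, and p-values were adjusted (Benjamini-Hochberg) over all genes within each. A gene was called at an adjusted p under 0.05 and a log2 fold change of at least 1. Isoenzyme ratios were compared by two-sided exact permutation tests (scipy 1.17.1). Depth is unknown, so no counting error can be given. The scripts were tested on simulated data. The genes, the pathway and marker lists and the tests were chosen with earlier results of these data known. All 39 genes are named, with statistics for those called; of each pathway list the highest and lowest called gene between FIBCL and SCDM is named. Alternatives changed the scaling, pseudocount, filter, thresholds, model and libraries.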

Additional observations from a re-analysis of the deposited data

Results flagged for a closer look

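The effects of the SCDM media, measured from the same spheres, differed in direction for Hk1 and Slc2a3. Hk1 lay at −0.35 from spheres on the log2 scale in SCDM and at 0.38 in SCDM/FGF, and the difference of 0.72 passed the test of SCDM/FGF against SCDM itself (limma adjusted p = 1.7e-07). Neither value from spheres reached the fold limit. Slc2a3 lay at −0.38 in SCDM and at 1.15 in SCDM/FGF, with a difference of 1.53 (limma adjusted p = 5.29e-07). The SCDM/FGF value of Slc2a3 turned to −0.46 when scaled to Gapdh.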

How the results depend on the processing

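Of the 105 calls over 6 comparisons, all 105 were kept under median ratio scaling, a trimmed mean without the listed genes, pseudocounts of 0.1 and 0.5, no filter, only the 2 groups compared, no mean-variance trend and summed copies, and with at least 5 TPM in 3 libraries 103 of 103 were kept. Deposited TPM ended 10 calls, and the lower calls between SCDM/FGF and spheres became 2. Scaling to Gapdh kept 49, ended 39, among them those of Gapdh itself, and reversed 17. Higher and lower calls were then 6 and 15 (FIBCL against SCDM), 3 and 15 (FIBCL against spheres), 4 and 12 (SCDM against spheres), 3 and 11 (SCDM/FGF against spheres) and 2 and 1 (SCDM/FGF against SCDM). The reversed values against spheres were, in FIBCL, Pfkl −0.010, Pfkp −0.26, Pkm −0.11, Pgk1 −0.15 and Eno1 −0.46, in SCDM, Aldoa −0.0029 and Bnip3 −0.033, and in SCDM/FGF, Slc2a3 −0.46, Pgam1 −0.0017, P4ha1 −0.35, Tpi1 −0.16, Aldoa −0.30, Egln1 −0.25, Pkm −0.011, Gpi1 −0.12, Higd1a −0.17 and Ldha −0.57. With the limma adjusted p alone, the counts were 16 higher and 18 lower for FIBCL against SCDM, 8 and 27 against SCDM/FGF, 27 and 8 against spheres, 7 lower for SCDM and 4 lower for SCDM/FGF against spheres, and 28 and 3 for SCDM/FGF against SCDM. At a log2 limit of 1.5 they were 6 and 4 for FIBCL against SCDM, 3 and 7 against SCDM/FGF, and 10 and 1 for SCDM against spheres.

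Leaving out 1 library at a time gave 10 higher and 8 lower for FIBCL against SCDM, 5 higher and 11 to 14 lower against SCDM/FGF, 14 to 16 higher and 4 lower against spheres, 16 to 17 higher and 2 lower for SCDM against spheres, 25 higher and 1 to 2 lower for SCDM/FGF against spheres, and 6 to 7 higher and 0 lower for SCDM/FGF against SCDM. It ended the calls given above for Bnip3, Pdk2 and Eno1. The log2 difference of Ldha over Ldhb between FIBCL and SCDM ran from −0.019 to 0.15 and was −0.019 without SCDM replicate 1. Whether the replicate numbers pair the samples is not given. Of 18 correlations of same-numbered libraries, 0 passed 0.1 (−0.12 to 0.098), which cannot exclude a shared preparation. With a replicate block the counts were 10 and 8, 5 and 13, 14 and 4, 17 and 2, 25 and 1, and 6 and 0, as without it. The enzyme share without the 100 most abundant other genes was 0.679% in spheres and 1.40% in FIBCL, against 1.23% in SCDM and 1.91% in SCDM/FGF. Low genes such as Car9 and the second Aldoa locus are limited by the unknown depth.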
